A study of Mus musculus with 6 samples.

Results

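The genes described here are those of the thyroid hormone receptors, the deiodinases that activate or destroy the hormone, a hormone transporter and a receptor corepressor: Thra, Thrb, Dio1, Dio2, Dio3, Slc16a10 and Hr. They were a fixed list of 7 genes out of 22942 in the tables, matched by RefSeq transcript, and for each gene the transcript with the highest mean level over the 6 libraries was used. The RNA came from the mouse line C3H-10T1/2, mesenchymal cells able to become fat cells in culture, at day 6 of brown adipocyte differentiation. A set of 3 libraries came from cultures given the solvent DMSO and another 3 from cultures given 4 uM of 611 (Cpd A), which inhibits LSD1, an enzyme that removes methyl groups from histones. All 6 cultures were induced for 72 h with isobutylmethylxanthine (0.5 mM), indomethacin (125 uM), dexamethasone (1 uM), insulin (20 nM), T3 (1 nM) and rosiglitazone (1 uM) in 10% serum, and then kept in insulin, T3 and rosiglitazone. Both groups therefore received the active hormone T3 from induction on, and DMSO or 611 already before it. The labels place the start of treatment either at seeding or 12 h after it. The cells are a single established line, and the design text calls each group biological triplicates, so p-values measure the spread between 3 cultures.

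Thyroid hormone circulates mostly as the prohormone thyroxine, which enters cells through membrane transporters and is converted by the deiodinases Dio1 and Dio2 into the active hormone T3, while Dio3 inactivates both. T3 binds the nuclear receptors encoded by Thra and Thrb, which sit on DNA with an RXR partner, hold corepressors when empty and recruit coactivators when bound. In brown fat, cAMP signalling raises Dio2, and the T3 made locally supports heat production.

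Levels are given as RPKM, reads relative to transcript length and library size, as the authors deposited them. Changes are log2 fold changes of RPKM + 1, 611 over DMSO, from limma, a linear model fitted to all genes at once, and a call is a Benjamini-Hochberg adjusted p below 0.05. Of the 7 genes, 4 reached 0.1 RPKM in 3 libraries or more, the filter for testing, and all 4 were called, 2 higher (Thra and Hr) and 2 lower (Thrb and Slc16a10). Among all 13829 tested genes 59.4% were called, 41.6% higher and 17.7% lower, so a call was common in these libraries. When the libraries were rescaled by median of ratios, the 4 calls kept their directions, beside 57.2% of all genes called, 28.5% higher and 28.6% lower. The deiodinases Dio1, Dio2 and Dio3 stayed below the filter in both groups.

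Promoter sequences were available for 5 of the 7 genes, in 6 windows, from RefSeq on GRCm38.p6, a later build than the mm9 the authors used. The 250 bases before the start are printed for Thrb, which had the largest fall and starts at 2 separate places, for Slc16a10, which fell with it, and for Dio2, the brown fat deiodinase. Capitals mark the motifs searched on both strands: AGGTCA, the hexamer that thyroid hormone receptors and related receptors bind, a direct repeat of that hexamer with any 4 bases between, and TGACGTCA, the cAMP response element. The sequences run 5′ to 3′ on the strand of the gene.
Thrb, upstream start, chr14:17660710-17660959, plus strand: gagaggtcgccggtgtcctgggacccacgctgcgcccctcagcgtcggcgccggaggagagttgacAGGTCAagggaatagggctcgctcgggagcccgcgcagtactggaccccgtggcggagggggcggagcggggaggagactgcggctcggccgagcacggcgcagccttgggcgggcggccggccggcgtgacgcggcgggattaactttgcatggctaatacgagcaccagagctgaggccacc
Thrb, downstream start, chr14:17981394-17981643, plus strand: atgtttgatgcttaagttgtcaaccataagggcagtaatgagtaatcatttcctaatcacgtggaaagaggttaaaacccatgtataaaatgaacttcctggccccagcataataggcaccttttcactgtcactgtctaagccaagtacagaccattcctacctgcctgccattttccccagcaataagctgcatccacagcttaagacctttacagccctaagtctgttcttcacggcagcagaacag
Slc16a10, chr10:40142255-40142504, minus strand: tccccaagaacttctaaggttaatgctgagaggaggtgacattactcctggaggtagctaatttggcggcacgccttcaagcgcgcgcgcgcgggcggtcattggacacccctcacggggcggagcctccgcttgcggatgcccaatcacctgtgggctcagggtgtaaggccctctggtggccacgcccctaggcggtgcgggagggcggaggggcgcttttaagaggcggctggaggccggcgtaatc
Dio2, chr12:90739039-90739288, minus strand: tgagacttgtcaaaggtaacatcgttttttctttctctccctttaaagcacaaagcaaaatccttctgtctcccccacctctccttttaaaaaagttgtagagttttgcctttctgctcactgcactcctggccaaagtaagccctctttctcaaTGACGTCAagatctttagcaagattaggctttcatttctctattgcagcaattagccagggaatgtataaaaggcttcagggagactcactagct
The upstream Thrb window held 1 hexamer, beginning 184 bases before the start, and was 71.6% G and C. The downstream Thrb window, at 44.0% G and C, and the Slc16a10 window, at 64.4%, held none of the motifs. The Dio2 window held 1 cAMP response element, beginning 95 bases before the RefSeq start. That start lies 600 bases upstream of the only Dio2 transcript start in the GENCODE M21 annotation, so the window may not adjoin the transcript measured here. Of 32851 RefSeq promoter windows of the same length, 14.0% held the hexamer, 1.55% the cAMP response element and 0.0152% the direct repeat, which was in none of the 6 windows here. A match is a description of the letters only.

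The libraries had between 3.89e+07 and 4.12e+07 reads, estimated from the steps of the low RPKM values. Fat cell markers were present in both groups and lower with 611: all 5 of Pparg, Cebpa, Adipoq, Fabp4 and Plin1 were called lower. Their summed level was 22482 to 23897 RPKM with DMSO and 11662 to 12983 with 611. Most of that sum was Fabp4, which fell 1.92-fold from a mean of 21052 to 10946 RPKM. Cebpa, Pparg, Adipoq and Plin1 fell less, by 1.17-fold, 1.39-fold, 1.40-fold and 1.58-fold. Of 6 brown fat markers 4 were tested and all 4 were called lower (Cidea, Cox8b, Prdm16 and Elovl3). The summed level of the 6 was 215 to 260 against 79.7 to 98.2 RPKM, mostly Elovl3 and Cidea. Prdm16 was low, at 0.338 ± 0.0193 with DMSO and 0.104 ± 0.0534 RPKM with 611. It passed the filter through its DMSO libraries, so its call is weak support. The defining brown fat gene Ucp1 was listed at 0 in all 6 libraries. All 5 progenitor markers (Pdgfra, Pdgfrb, Ly6a, Cd34 and Thy1) were higher, with sums of 63.8 to 72.2 against 217 to 230 RPKM. Of 3 smooth muscle markers 2 were higher, with sums of 29.4 to 30.6 against 65.3 to 74.6 RPKM. Of cartilage markers Sox9 and Col2a1 were higher while Acan stood at 0 (sums of 9.90 to 10.6 against 23.8 to 24.9). Of skeletal muscle markers Acta1 was lower and Myod1, Myog and Ckm were at 0. Among all tested genes 41.6% were called higher and 17.7% lower. Bone, macrophage and endothelial markers were too low to test. These marker levels moved with the treatment, and their part in the changes below was not tested. In bulk RNA, fewer cells of a type and less RNA per cell cannot be told apart.

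**Figure D1:**
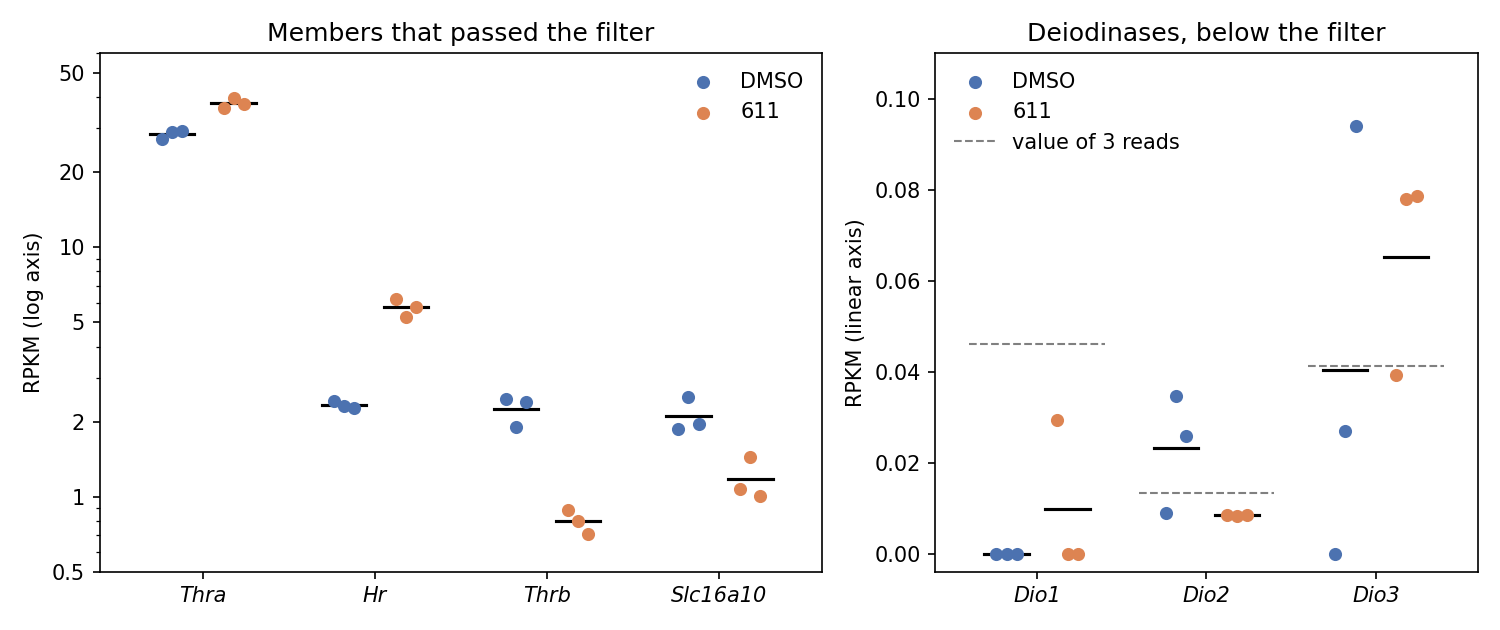
Level of each gene in each library (dots; blue DMSO, orange 611) with the group mean (bar), on a log RPKM axis for the 4 genes that passed the filter and a linear one for the deiodinases. Thra and Hr lie higher with 611, Thrb and Slc16a10 lower, with no overlap of the groups, and most deiodinase values lie at or below the value of 3 reads (dashed, highest over the libraries).

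The 2 receptors moved in opposite directions. Thra, the receptor gene with the higher level here, was at 27.2, 29.0 and 29.3 RPKM in the DMSO libraries and at 36.0, 39.6 and 37.3 in the 611 libraries. Every 611 library lay above every DMSO library, and the mean rose 1.32-fold from 28.5 ± 1.16 to 37.7 ± 1.82 (SD, n = 3 per group). The log2 fold change was 0.39 (SE 0.048, limma Benjamini-Hochberg adjusted p = 1.3e-04). Thra ranked 2073 among the 13829 tested genes in the DMSO cells.

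Thrb, the second receptor gene, was at 2.47, 1.90 and 2.39 RPKM with DMSO and at 0.887, 0.802 and 0.710 with 611. The groups did not overlap, as was true of 66.2% of all tested genes. The mean fell 2.82-fold from 2.25 ± 0.308 to 0.799 ± 0.0885, a log2 fold change of -0.85 (SE 0.082, limma Benjamini-Hochberg adjusted p = 3.3e-05). Because 1 is added before the logarithm, this value understates the change of a gene near 1 RPKM, and the log2 ratio of the mean levels was -1.496. The DMSO libraries held about 575, 453 and 572 reads of the transcript and the 611 libraries about 217, 198 and 174.

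Over all genes the median log2 fold change was 0.10, and rescaling by median of ratios moved it to about 0. The log2 fold change of Thra then went from 0.39 to 0.24 and stayed called (limma Benjamini-Hochberg adjusted p = 0.0015). That of Thrb went from -0.85 to -0.94. With this scaling the share of higher genes among all calls went from 70.1% to 49.9%.

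Thra made up most of the receptor RNA in both groups, and more of it with 611. The ratio of Thra to Thrb, both per length, was 11.01, 15.2 and 12.3 in the DMSO libraries and 40.7, 49.5 and 52.6 in the 611 libraries. Its mean went from 12.8 ± 2.17 to 47.6 ± 6.19, with every 611 library above every DMSO library. The share of Thrb in the summed level of both genes was 7.34 ± 1.10% with DMSO and 2.08 ± 0.281% with 611. The sum itself was 30.7 ± 1.05 RPKM and 38.5 ± 1.80 RPKM. For each of these quantities the exact two-sided permutation test gave p = 0.1, the smallest value that 3 against 3 libraries allow. Because Thra was higher and Thrb lower in every 611 library, the ratio and the share had to separate the groups. Their tests therefore add nothing to the results of the 2 genes.

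**Figure D2:**
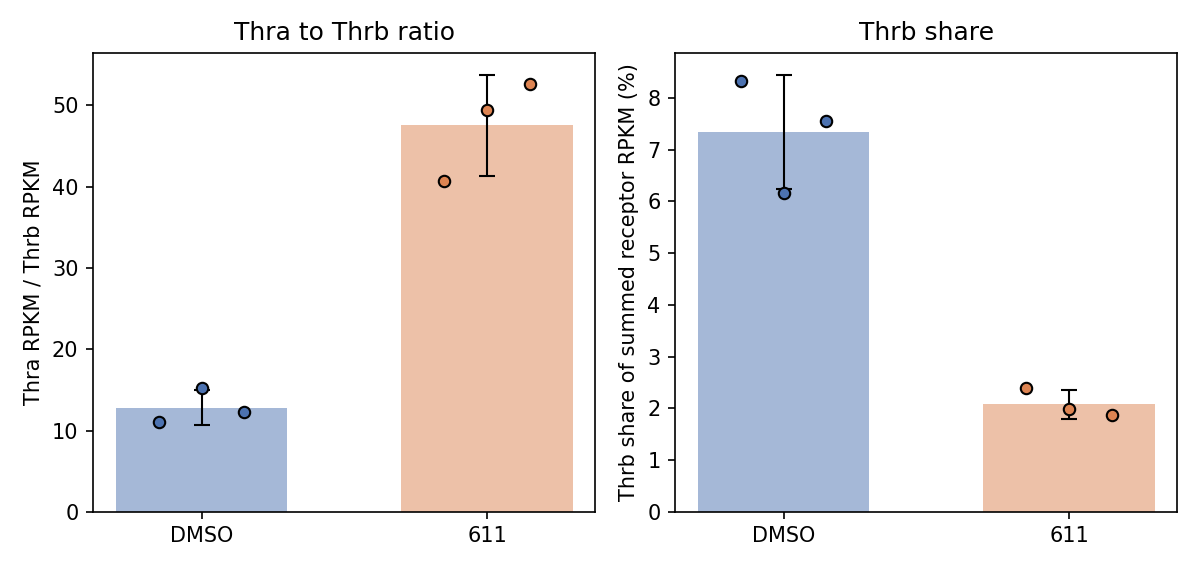
Ratio of Thra to Thrb RPKM (left) and share of Thrb in their summed RPKM in percent (right), with 1 dot per library, bars at the group mean and error bars of 1 SD (n = 3 per group). The ratio lies between 11.01 and 15.2 with DMSO and between 40.7 and 52.6 with 611.

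Each receptor gene makes several RNAs, which these tables resolve only in part. The tables list 1 Thra transcript, NM_178060, with 410 coding codons in the GRCm38 annotation. Another RefSeq model, with 492 coding codons, has exons that share 263 bases with those of the gene Nr1d1 on the opposite strand, and it is not among the transcripts analysed here. The long form corresponds to the receptor variant that does not bind T3. How reads in exons that both forms share were assigned is not known, so the rise of the listed transcript cannot be assigned to a form. The listed model shares 0 exon bases with Nr1d1. Nr1d1, a clock repressor, was at 6.79 ± 0.255 and 7.10 ± 0.165 RPKM and was not called (adjusted p = 0.356 by limma).

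For Thrb 2 transcripts are listed, with starts 321 kb apart in the GRCm38 annotation, the 2 starts whose sequences are given above. The transcript from the upstream start, NM_001113417, gave the values already shown. The other, NM_009380, was at 2.29, 1.75 and 2.22 RPKM with DMSO and at 0.777, 0.778 and 0.659 with 611. Its reads, about 541, 424 and 539 against 193, 195 and 164, were nearly as many as those of the first. In the GRCm38 annotation the models share 3996 exon bases, 88.2% of the first and 64.5% of the other, so the values are not independent. Those models are 4532 and 6200 bases long, while the read numbers rest on lengths of 5997 and 6083 bases found by search. The models the authors counted may therefore differ from these, and their shared part is not known. Both transcripts were lower in every 611 library, and the tables do not show which start is used.

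Hr changed most in the upward direction. Hr encodes hairless, a corepressor that binds thyroid hormone receptors and whose gene is induced by T3 in the brain. It was at 2.42, 2.31 and 2.27 RPKM with DMSO, a narrow range, and at 6.20, 5.24 and 5.77 with 611. All 611 libraries lay above all DMSO libraries. The mean rose 2.46-fold from 2.33 ± 0.0800 to 5.74 ± 0.478, with a log2 fold change of 1.01 (SE 0.067, limma Benjamini-Hochberg adjusted p = 4.1e-06). Scaling left it at 0.90. Relative to the level of Thra, Hr went from 0.0821 ± 0.00628 to 0.153 ± 0.0199 (exact two-sided permutation p = 0.1, the smallest possible).

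Slc16a10, also called MCT10, carries thyroid hormones and aromatic amino acids across the cell membrane. It was at 1.87, 2.51 and 1.95 RPKM with DMSO and at 1.08, 1.44 and 1.01 with 611. Replicate 2 was the highest library of each group, and the groups did not overlap. The mean fell 1.80-fold from 2.11 ± 0.352 to 1.18 ± 0.231, with a log2 fold change of -0.52 (SE 0.102, limma Benjamini-Hochberg adjusted p = 0.0022). A shorter transcript of the gene, NM_028247, was at 1.12, 1.73 and 1.41 RPKM against 1.03, 1.35 and 0.634, and there the groups overlapped. With the mean over both transcripts the log2 fold change was -0.41 (limma Benjamini-Hochberg adjusted p = 0.0140).

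In the DMSO cells Hr, Thrb and Slc16a10 could not be ordered: their levels of 2.33, 2.25 and 2.11 RPKM differed by less than the spread between libraries, far below Thra and above all deiodinases. With 611 the order of the chosen transcripts was Thra, Hr, Slc16a10 and Thrb, and no library of any of them overlapped with those of its neighbour in that order. The shorter Slc16a10 transcript, at 1.03, 1.35 and 0.634 RPKM with 611, did overlap Thrb.

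Other transporters gave a mixed picture. Of 11 further transporter genes 5 passed the filter, of which 1 was called higher and 1 lower, beside 41.6% and 17.7% of all tested genes. The lower call did not hold in most fits that left out 1 library. After scaling 1 was higher and 3 lower, beside 28.5% and 28.6%. Before scaling the median log2 fold change of the tested transporter genes was -0.10 against 0.10 for all tested genes. Slc7a5, the light chain of an amino acid exchanger that also carries thyroid hormones, was at 7.27, 6.42 and 6.78 RPKM with DMSO and rose 1.46-fold to 10.2, 9.66 and 9.95 (limma Benjamini-Hochberg adjusted p = 8.5e-05). Its heavy chain partner Slc3a2 was at 42.4 ± 2.02 and 42.1 ± 0.731 RPKM and was not called (adjusted p = 0.869 by limma), and it was called lower after scaling (adjusted p = 0.0184 by limma).

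Slc7a8, a light chain related to Slc7a5, was at 0.0126 ± 0.000175 and 0.0141 ± 0.00930 RPKM, too low to test. The brain and liver transporter genes Slco1c1 and Slc17a4 were listed at 0 in all libraries. None of the 3 hormone-binding proteins could be tested: Ttr and Serpina7 were at 0 throughout, and Crym, which binds T3 in the cytosol, was at 0 with DMSO and at 0.0195, 0.0387 and 0.0584 RPKM with 611.

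The deiodinase genes were almost silent in both groups. Dio2, the activating enzyme of brown fat, was at 0.00885, 0.0346 and 0.0259 RPKM with DMSO and at 0.00843, 0.00835 and 0.00841 with 611. These are 2, 8 and 6 reads against 2, 2 and 2. The RPKM of 3 reads is between 0.0125 and 0.0133 for Dio2, so every 611 library and 1 DMSO library lay below it. Over each group 16 reads stood against 6, a ratio by depth of 0.361 with an exact 95% interval of 0.116 to 0.972. That interval covers counting error only, not the spread between cultures, and treats every read as independent. Every Dio2 count was even, and whether both mates of a pair were counted is not known. The interval may therefore be too narrow, and no fall of Dio2 can be read from it. Tested without the filter, Dio2 was not called (adjusted p = 0.299 by limma).

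Dio3, the inactivating enzyme, had 0, 2 and 7 reads with DMSO and 3, 6 and 6 with 611, or 0.0403 ± 0.0484 and 0.0653 ± 0.0225 RPKM. The groups overlapped, the ratio by depth was 1.61 (exact 95% interval 0.659 to 4.16, counting error only), and without the filter the limma Benjamini-Hochberg adjusted p was 0.486. Its neighbour Dio3os, a noncoding RNA on the opposite strand, was at 0.0262 ± 0.0454 and 0.0445 ± 0.0398 RPKM. Dio1, the activating enzyme of liver and kidney, was listed at 0 in all libraries except 611 replicate 1, which had 2 reads. The value of 3 reads for Dio1 is between 0.0434 and 0.0460 RPKM, and differences below such floors were not detectable at this depth.

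Genes that support the deiodinases were expressed at much higher levels than the enzymes. Deiodinases contain selenocysteine, and Dio2 protein is marked for breakdown by ubiquitin. Of 10 such genes 1 was called higher and 4 lower (median log2 fold change -0.12), beside 41.6% and 17.7% of all tested genes. After scaling 1 was higher and 8 lower, beside 28.5% and 28.6%. Wsb1, the ubiquitin ligase adaptor that recognises Dio2, rose 2.03-fold from 8.29 ± 1.03 to 16.8 ± 1.77 RPKM (limma Benjamini-Hochberg adjusted p = 4.0e-05). Marchf6, another ubiquitin ligase of Dio2, fell 1.37-fold from 43.6 ± 0.797 to 31.8 ± 1.30 (limma Benjamini-Hochberg adjusted p = 2.4e-05).

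Among the genes of selenocysteine synthesis, Sepsecs, which forms selenocysteine on its transfer RNA, fell 1.47-fold from 12.0 ± 0.494 to 8.19 ± 0.290 RPKM. Sephs2, which makes the selenium donor, fell 1.18-fold from 22.0 ± 0.938 to 18.6 ± 1.06. Trnau1ap fell 1.12-fold to 9.97 ± 0.277, a call that ended without DMSO replicate 1, DMSO replicate 3, 611 replicate 1 or 611 replicate 3 (limma Benjamini-Hochberg adjusted p up to 0.1295). It also ended with voom on read numbers recovered from the RPKM (limma Benjamini-Hochberg adjusted p = 0.122).

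The 3 RXR genes encode the dimer partners of both receptors. All 3 were called lower before and after scaling, beside 17.7% and 28.6% of all tested genes. Rxrg, the least expressed, was at 3.35, 2.48 and 2.38 RPKM with DMSO and at 0.819, 0.971 and 0.875 with 611, a fall of 3.08-fold close to that of Thrb. Rxra was the most abundant of the 3 and fell 1.31-fold from 40.8 ± 1.38 to 31.1 ± 1.30. Rxrb fell 1.20-fold from 18.0 ± 1.09 to 15.0 ± 0.920. Their limma Benjamini-Hochberg adjusted p-values were 4.2e-05, 9.2e-05 and 0.0062.

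Calls among corepressors and coactivators depended on the scaling. Of 7 corepressor genes 5 were called higher and 1 lower (median log2 fold change 0.20), beside 41.6% and 17.7% of all genes, and after scaling 1 was higher and 1 lower, beside 28.5% and 28.6%. Ncor1, which holds histone deacetylases on empty receptors, fell 1.09-fold from 29.7 ± 0.558 to 27.2 ± 0.595 (log2 fold change -0.12, -0.27 after scaling), a call that ended without DMSO replicate 2, DMSO replicate 3 or 611 replicate 2 (limma Benjamini-Hochberg adjusted p up to 0.0707). The histone deacetylase gene Hdac3, and Cops2, lost their calls after scaling (limma adjusted p = 0.0872 and 0.370). Gps2 lost its call there too (0.285), and also without DMSO replicate 1, DMSO replicate 3, 611 replicate 2 or 611 replicate 3 (up to 0.146 by limma). Tbl1x, at the edge of the test (limma adjusted p = 0.0495), had a log2 fold change of 0.11 that turned to -0.03 after scaling. Its call also ended whichever library was left out (limma adjusted p up to 0.169) and without the variance trend (0.0707).

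Of 11 coactivator genes 5 were called higher and 2 lower (median log2 fold change 0.16), beside 41.6% and 17.7% of all tested genes. The share higher was thus near that of all genes. After scaling 1 was higher and 2 lower, beside 28.5% and 28.6%. Ncoa3, a p160 coactivator, rose 1.59-fold from 2.35 ± 0.217 to 3.72 ± 0.0963 RPKM and stayed called after scaling (limma Benjamini-Hochberg adjusted p = 2.1e-04 and 8.9e-04). Ppargc1b, a coactivator of mitochondrial genes, fell 1.45-fold from 16.7 ± 0.764 to 11.5 ± 0.951, and Ncoa1 fell 1.18-fold to 5.87 ± 0.171. Kat2b, Crebbp and Carm1 rose 1.20-fold, 1.22-fold and 1.18-fold and lost their calls after scaling. Med1, the Mediator subunit that binds T3-loaded receptors, was at 13.0 ± 0.699 and 13.7 ± 0.359 RPKM and was not called (adjusted p = 0.194 by limma).

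Genes known to respond to T3 were mostly lower, in contrast to Hr. Of 15 tested genes of this list 11 were called lower and 2 higher (median log2 fold change -0.31), beside 17.7% and 41.6% of all tested genes. After scaling 13 were lower and 2 higher, beside 28.6% and 28.5%. Many of the listed genes are also fat cell genes of lipid metabolism, and all 5 fat cell markers were lower in the same libraries. Klf9, a direct T3 target in several tissues, was at 27.5, 29.7 and 29.96 RPKM with DMSO and fell 1.504-fold to 18.9, 20.6 and 18.4 (log2 fold change -0.57, SE 0.054, limma Benjamini-Hochberg adjusted p = 3.2e-05). Thrsp, named for its response to thyroid hormone, fell 3.54-fold to 22.9 ± 4.80, and Me1, malic enzyme, fell 1.39-fold from 276 ± 1.92 to 198 ± 10.0.

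Ucp3, a mitochondrial carrier, fell 2.74-fold from 6.61 ± 0.148 to 2.41 ± 0.254 RPKM, the glucose transporter gene Slc2a4 fell 1.80-fold to 18.7 ± 1.71 and the gluconeogenic gene Pck1 fell 5.96-fold to 3.28 ± 0.458. The 2 that rose with Hr were Bcl3, from 0.441 ± 0.128 to 1.26 ± 0.207 RPKM or 2.86-fold, and Cpt1a, which admits fatty acids to mitochondria, from 18.8 ± 0.858 to 29.5 ± 1.06 or 1.57-fold. Their limma Benjamini-Hochberg adjusted p-values were 2.7e-04 and 7.1e-06, and both stayed called after scaling.

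**Figure D3:**
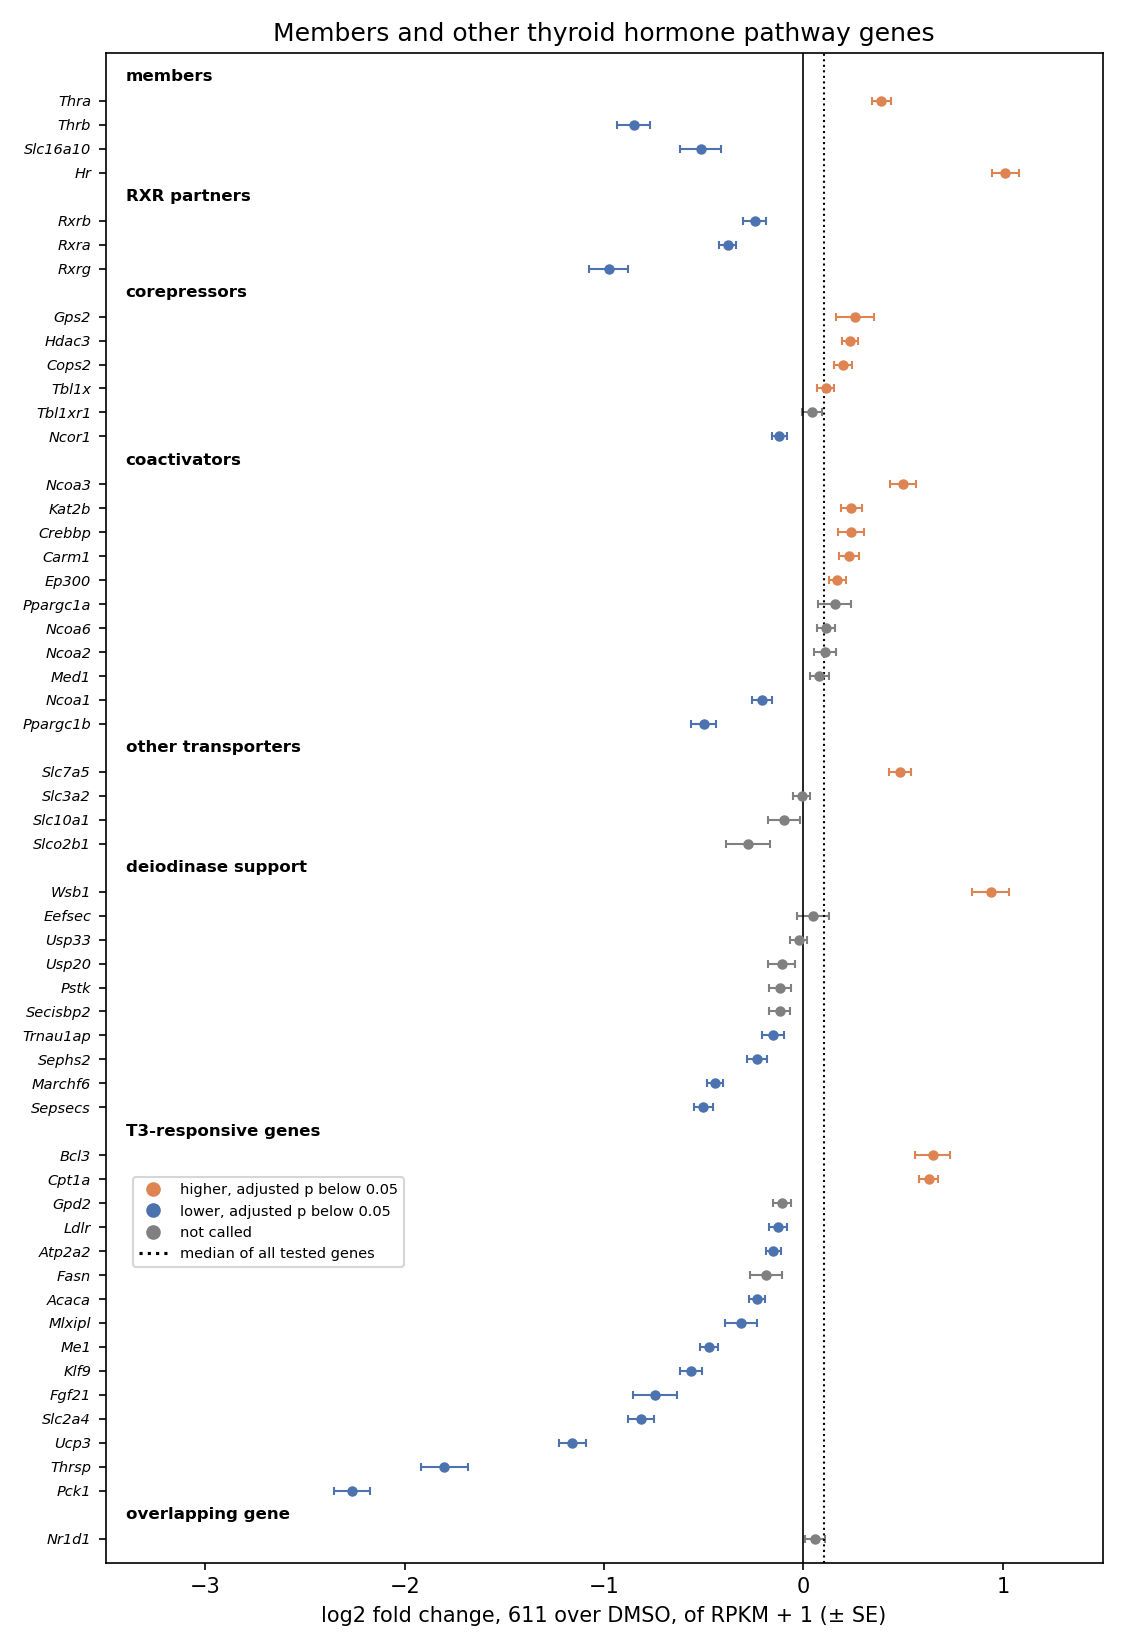
Log2 fold change of RPKM + 1, 611 over DMSO, with its SE, for the 4 tested members and other tested pathway genes by group (orange called higher, blue called lower, grey not called). The dotted line is the median of all tested genes, at 0.10; all 3 RXR genes and most T3-responsive genes lie left of 0, Hr and Wsb1 near 1.

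In all, 52 of the 64 other pathway genes passed the filter, of which 14 were called higher, 22 lower and 16 in neither direction, with a median log2 fold change of -0.11 against 0.10 over all genes. Among all genes 41.6% were higher and 17.7% lower. After scaling 6 pathway genes were higher and 30 lower, beside 28.5% and 28.6% of all genes.

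The genes whose levels followed each member most closely were sought among 11371 genes with a mean of at least 1 RPKM, by Pearson correlation of log2(RPKM + 1) over the 6 libraries. For Thrb these were Coq8a, Bche and Plpp6, all with r of at least 0.998. For Slc16a10 they were Ift81, Rhbdl1 and Klf15, for Thra Tram2, Ift27 and Ift122, and for Hr Exoc6, Nhsl1 and Elf4. Bche was close to Thrb in level as well, at 2.28 ± 0.344 and 0.813 ± 0.0744 RPKM. A correlation over 6 libraries in 2 groups mainly reads the group difference: 2360 genes had r above 0.95 with Thra, 2416 with Hr, 1046 with Thrb and 182 with Slc16a10.

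Every one of the 15 other processing choices tried left Thra and Hr called higher and Thrb and Slc16a10 called lower. Over the choices that keep the added 1, the log2 fold change ran from 0.24 to 0.42 for Thra, from 0.90 to 1.07 for Hr, from -0.94 to -0.80 for Thrb and from -0.61 to -0.41 for Slc16a10.

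**Figure D4:**
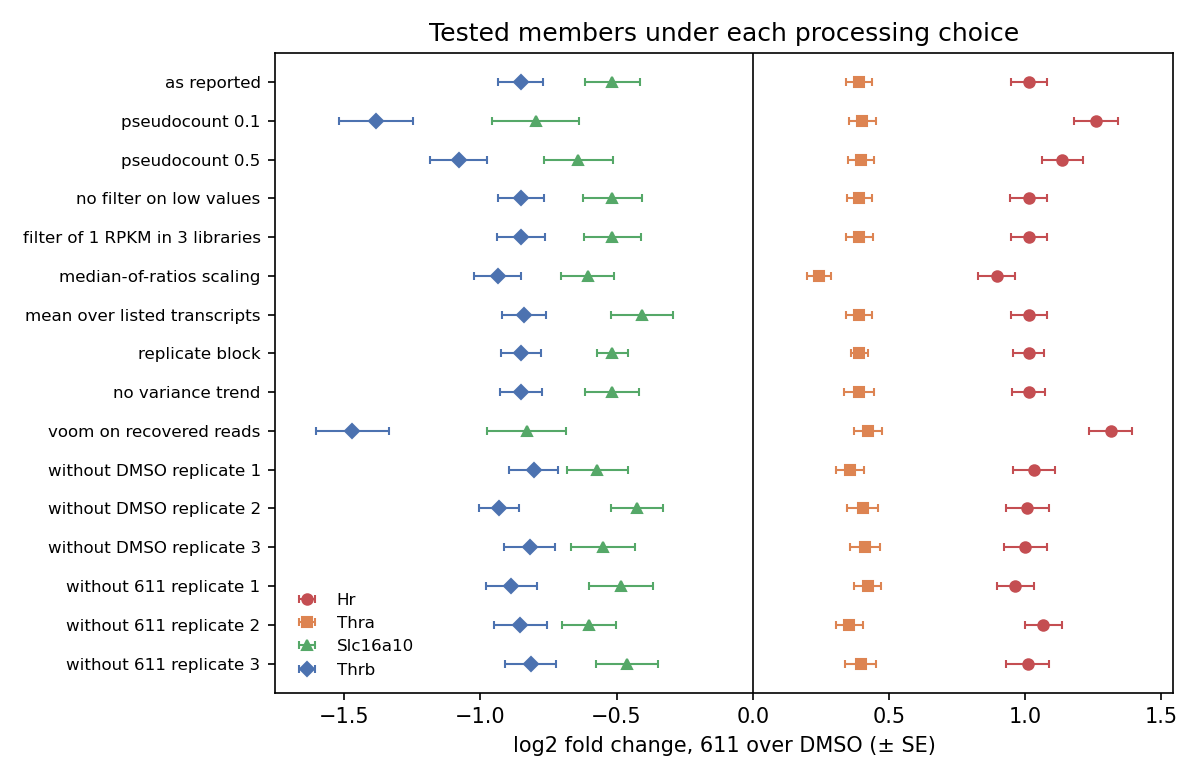
Log2 fold change, 611 over DMSO, with its SE, of Hr, Thra, Slc16a10 and Thrb as reported and under 15 other processing choices. Every value stays on its side of 0. Values with a smaller pseudocount lie farther out because less is added to low levels. Values on recovered reads also lie farther out, and there the library totals differ too.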

How the data were processed

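RNA from 6 cultures was sequenced after a stranded mRNA library preparation, per the labels' protocols. Per the submitters' processing notes, TopHat2 2.0.12, TopHat and SAMtools were used with genome build mm9. The authors deposited 1 table per library of RPKM values for 28430 RefSeq transcripts. The sources used here do not name the program behind the values, its annotation or its use of strand, so overlapping and antisense genes cannot be told apart.

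Symbols came from a RefSeq table of GRCm38.p6 (27789 accessions matched). Groups and replicate numbers came from the sample titles. limma 3.58.1 (R 4.3.3) with a variance trend was fitted to log2(RPKM + 1) with group as the term, over 13829 genes with at least 0.1 RPKM in at least 3 libraries. The fit was also run on simulated data in which only a small part of the genes changed. In the real data 59.4% were called, so that run is no check of these calls. The members, lists and filter were chosen with earlier results of these data known. Low RPKM values are multiples of 1 read, which gave library totals and floors of 3 reads. Among genes above 0, values came out whole for 25.0% with the reference length and for 69.2% after a search over lengths, within 0.02 reads plus 2e-05 per read, and a search can meet whole numbers by chance. The units counted may be reads or read pairs, which the sources used here do not state. Intervals and floors cover counting error only, and the intervals treat each counted unit as independent.

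Same-numbered DMSO and 611 libraries shared deviations from their groups (correlations across genes of 0.296, 0.298 and 0.177), which is a pairing seen in the data and not stated in the labels. The naming rule took every member, 13 pathway genes whatever their values (2 are counted but not reported here by name or shown), and at most 4 called genes per list and direction with at least 1 RPKM in the higher group. Alternatives were the pseudocount, the filter, the scaling, the transcript, the replicate block, the trend, voom on recovered reads and leaving out each library. Python 3.11.15, pandas 2.3.3 and scipy 1.17.1 were used for the rest.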

Additional observations from a re-analysis of the deposited data

How the results depend on the processing

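The calls of Thra, Hr, Thrb and Slc16a10 held under all 15 alternatives, with limma adjusted p-values (Benjamini-Hochberg) up to 0.0015, 7.6e-05, 3.3e-04 and 0.0140. With a pseudocount of 0.1 the log2 fold change was -1.38 for Thrb and -0.80 for Slc16a10, since less is added to low levels. With voom on recovered reads, where the library totals differ too, it was -1.47 and -0.83. Median-of-ratios scaling moved the number of all genes called lower from 2451 to 3959, and of other pathway genes called higher from 14 to 6. Of 36 called pathway genes 24 kept their call under every alternative and 6 lost it under scaling alone. With the replicate number as a block, 2 members were higher and 2 lower, 6169 genes in all were higher and 2700 lower, and 15 and 24 pathway genes. Among the genes named, the block ended no call. Leaving out 1 library gave 5127 to 5532 genes higher and 2167 to 2329 lower. Depth limits the deiodinases, where single libraries hold between 0 and 8 reads and none was called by limma without the filter (adjusted p = 0.533, 0.299 and 0.486 for Dio1, Dio2 and Dio3).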
